A study of Triticum aestivum and Aegilops tauschii and Triticum carthlicum with 18 samples.

Results

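Of the 61115 probe sets on the wheat array that are not controls, a set of 50 stood out in the synthetic allohexaploid wheat line Allo-AT9. The 50 read higher in Allo-AT9 than in both parents of this line and in the RNA mixture of these parents. The mean of the sister line Allo-AT5 lay less than 1 log2 unit from that of its own mixture. These 50 were selected on measured values. A probe set had to reach a log2 level of 4.54 on all 4 Allo-AT9 arrays, and its mean over the 4 Allo-AT5 arrays had to lie less than 1 log2 unit from the mean of the Allo-AT5 mixture. In all, 22677 probe sets met both conditions. They were ranked by the gap, that is the lowest Allo-AT9 array minus the highest of the 6 arrays of the parents and the mixture, and the first 50 were kept. The gap was above 0 in 99 of the 22677. The level of 4.54 came from earlier work on these data, where it marked a probe set as expressed. A probe set under this level is weak on the array, which is not the same as absent.

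The 18 arrays formed 9 groups of 2. Allo-AT9 came from a cross of Triticum turgidum ssp. carthlicum line TTH01 with the goat grass Aegilops tauschii line TQ27, with the genome doubled by colchicine, and was measured at the selfed generations S4 and S5. Allo-AT5 was made in the same way from T. turgidum ssp. durum cv. Inbar, line TTR04, and the same TQ27, and was also measured at S4 and S5. The remaining groups were TTH01, TQ27 and TTR04 and the mixtures MPV9 (TTH01 with TQ27) and MPV5 (TTR04 with TQ27), each of 2 parts tetraploid and 1 part diploid RNA, which serve as empirical mid-parent values. Each array of a line or parent carried RNA from a pool of 10 seedlings, namely from the second leaf at the three-leaf stage, in a 12 h day at 22 °C with nights at 20 °C. Each line stands for 1 cross, and only plants with intact chromosomes by genomic in situ hybridisation had been used. In such leaf RNA, fewer cells of a type and less RNA per cell cannot be told apart.

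An allohexaploid wheat carries the A and B genomes of a tetraploid wheat and the D genome of a goat grass, so that most genes are present as related copies, the homoeologs. A transcript is called additive when its level in the hybrid equals what the mixed parental RNA gives, and a level above both parents is called transgressive. A probe set reads the summed signal of the transcripts that match its short probes, homoeologs included, so that a rise on the array does not say which copy gave it. None of the 50 probe sets, and none of the other probe sets of their clusters, had a gene symbol in the platform annotation, which names 1273 probe sets. They are therefore given by their array names, and no function or sequence is given for them. Probe sets whose names share the part before the first point (as Ta_7102) belong to 1 cluster of related sequences on the array. Their 50 names fell into 45 clusters.

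The labelled tissue was checked on annotated probe sets. Of 33 for photosynthesis, most of them for the large subunit of Rubisco, 13 reached the level on all 4 Allo-AT9 arrays and 16 were under it on all 18. The mean of the list was 5.56 to 5.78 on the Allo-AT9 arrays and 5.70 to 5.96 on the MPV9 arrays. This mean joins probe sets far apart. For the large subunit of Rubisco, Ta_24976.1.S1_x_at read 14.30 to 14.45 in Allo-AT9 and Ta_14567.2.S1_at read 2.06 to 2.29. Of 13 for seed storage proteins, which leaves should lack, 11 were under the level on all 18 arrays, and 1, Ta_160.2.S1_x_at, reached it on all 18 with 5.85 to 7.002. The 5 defence probe sets, which were all purothionins, and the 3 for cold and heat were under it on all 18 arrays. None of these was among the 50. Arrays of a group differed by an SD of 0.54 to 0.87 over all probe sets, except those of Allo-AT5 S5 with 0.24, and the TTR04 arrays lay farthest apart. Added spike-in transcripts (BioC) split the arrays into 8 with a level of 8.77 to 9.66 and 10 with a level of 5.67 to 7.28. In Allo-AT9 replicate 1 was in the first band and replicate 2 in the second at both generations.

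The gap that chose the 50 ran from 0.23 to 5.69, with a median of 1.03. It was at least 1 in 25 of them, at least 2 in 18, at least 3 in 9 and at least 4 in 3. Set against MPV9, the Allo-AT9 mean was higher by a median of 2.33 (0.54 to 6.26). Both MPV9 arrays were under the level in 28 of the 50, and with MPV9 set to the level in these the median was at least 1.36 (0.46 to 5.59). Over all probe sets the median of this difference was 0.01. The corresponding medians were 2.18 against TTH01 and 2.26 against TQ27, or at least 1.30 and at least 1.67 with a parent under the level on both arrays set to it. All of these differences follow from the selection and are a description with no test. Against Allo-AT5, which the selection held to less than 1 unit from MPV5, the Allo-AT9 mean was higher by a median of 2.15 (0.20 to 6.62) as measured. This was not tested either. In Allo-AT9 itself the 50 had a median level of 6.53 (5.00 to 10.44), against 6.71 for the 22677 that met both conditions.

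**Figure D1:**
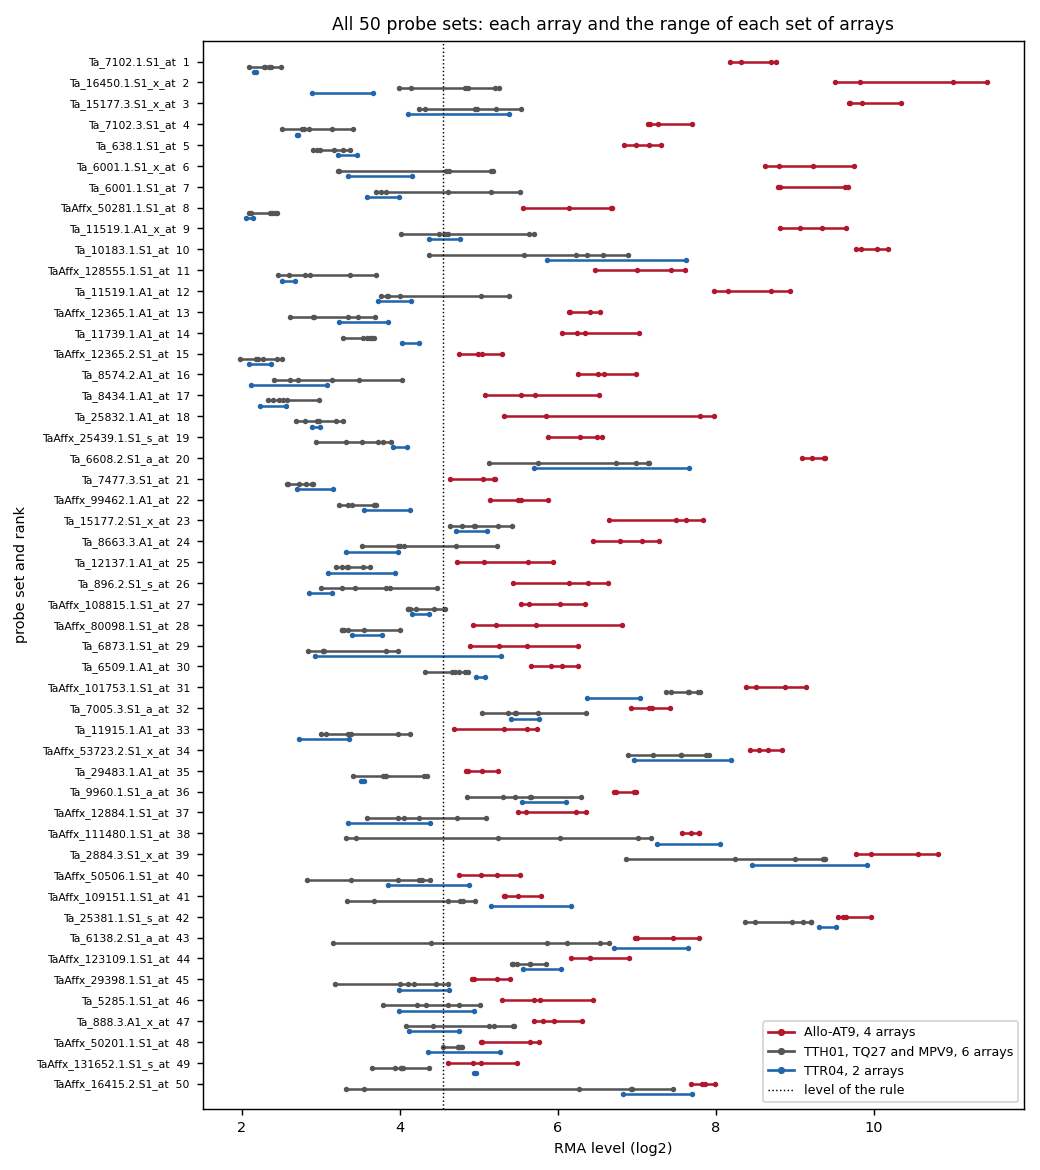
Levels of all 50 probe sets in rank order from top to bottom, on the log2 scale, with each array as a point and a line for the range: Allo-AT9 (4 arrays, red), TTH01, TQ27 and MPV9 (6 arrays, grey) and TTR04 (2 arrays, blue). The red range lies to the right of the grey range throughout, as the selection requires, with a gap of 5.69 at the top and 0.23 at the bottom, while the blue points reach the red range in 9 of the 50.

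Rank 1 was held by Ta_7102.1.S1_at. Its levels in Allo-AT9 were 8.70 and 8.32 (S4) and 8.75 and 8.18 (S5), against 2.34 and 2.29 in TTH01, 2.28 and 2.49 in TQ27 and 2.09 and 2.37 in MPV9. The other 8 arrays read 2.11 and 2.48 (S4) and 2.36 and 2.46 (S5) in Allo-AT5, 2.15 and 2.18 in TTR04 and 2.56 and 2.33 in MPV5. The 14 arrays outside Allo-AT9 thus lay at 2.09 to 2.56, while the 4 Allo-AT9 arrays spanned 0.57 at a level several units higher. The difference from MPV9 was 6.26, or at least 3.95 when MPV9 is set to the level of 4.54. A second probe set of this cluster, Ta_7102.3.S1_at, had rank 4. It read 7.27 and 7.16 (S4) and 7.69 and 7.14 (S5) in Allo-AT9, against 3.41 and 2.78 in TTH01, 3.13 and 2.76 in TQ27 and 2.85 and 2.51 in MPV9. In the durum set its levels were 3.24 and 2.78 (S4) and 2.90 and 3.01 (S5) in Allo-AT5, 2.71 and 2.69 in TTR04 and 2.78 and 2.69 in MPV5. Both probe sets were under the level on all 14 arrays outside Allo-AT9. The third of the cluster, Ta_7102.2.S1_at, was under the level on all 18 arrays, with 4.25 and 3.65 (S4) and 3.22 and 3.46 (S5) in Allo-AT9 and 3.28 and 2.88 in TTH01, 3.27 and 3.30 in TQ27 and 3.39 and 2.92 in MPV9.

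Ta_638.1.S1_at and TaAffx_50281.1.S1_at had the same form, with no array outside Allo-AT9 at the level. Ta_638.1.S1_at, rank 5, read 7.30 and 6.84 (S4) and 6.99 and 7.16 (S5) in Allo-AT9, against 3.27 and 2.89 in TTH01, 2.99 and 3.37 in TQ27 and 3.16 and 2.95 in MPV9. Its Allo-AT5 levels were 3.20 and 3.13 (S4) and 3.50 and 3.76 (S5), with 3.21 and 3.46 in TTR04 and 3.34 and 2.87 in MPV5. Its 4 Allo-AT9 arrays spanned 0.47. TaAffx_50281.1.S1_at, rank 8, read 6.13 and 6.69 (S4) and 5.56 and 6.67 (S5) in Allo-AT9, against 2.36 and 2.38 in TTH01, 2.09 and 2.42 in TQ27 and 2.45 and 2.11 in MPV9. The Allo-AT5 levels were 2.48 and 2.06 (S4) and 1.93 and 2.29 (S5), with 2.13 and 2.05 in TTR04 and 1.87 and 2.02 in MPV5. It had the lowest mean TTR04 level of the 50, and in Allo-AT9 its replicate 1 was the lower one at both generations. Differences from MPV9 were at least 2.53 for Ta_638.1.S1_at and at least 1.72 for TaAffx_50281.1.S1_at.

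In other leading probe sets a parental signal was present below that of Allo-AT9. Ta_16450.1.S1_x_at, rank 2, read 9.82 and 11.43 (S4) and 9.51 and 11.00 (S5) in Allo-AT9, against 5.21 and 5.26 in TTH01, 3.99 and 4.14 in TQ27 and 4.87 and 4.82 in MPV9. Allo-AT5 gave 3.30 and 4.04 (S4) and 3.90 and 4.05 (S5), with 2.88 and 3.66 in TTR04 and 3.11 and 3.84 in MPV5. TTH01 and MPV9 were above the level and all other arrays outside Allo-AT9 below it, and the mean difference from MPV9 was 5.59. Here too replicate 1 of Allo-AT9 was the lower one at both generations, by more than 1 unit. The probe set Ta_16450.1.S1_a_at of the same cluster was high in both, at 12.92 and 13.15 (S4) and 12.59 and 12.99 (S5) in Allo-AT9 and 12.90 and 12.84 in TTH01, against 9.28 and 9.34 in TQ27. Its difference between Allo-AT9 and MPV9 was 0.22, and the other probe sets of the cluster gave -0.08 (Ta_16450.2.S1_at) and -0.05 (Ta_16450.3.S1_at). Names ending in _x_at mark probe sets with probes that can match other sequences, and these may mix signals of several transcripts.

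Ta_6001.1.S1_x_at and Ta_6001.1.S1_at, ranks 6 and 7, share the same base name. The first read 9.75 and 8.62 (S4) and 9.23 and 8.80 (S5) in Allo-AT9, against 5.18 and 5.15 in TTH01, 3.21 and 3.23 in TQ27 and 4.59 and 4.62 in MPV9. Its Allo-AT5 arrays gave 3.45 and 3.50 (S4) and 3.48 and 3.87 (S5), with 4.15 and 3.34 in TTR04 and 3.80 and 3.32 in MPV5. Only TTH01 and MPV9 reached the level outside Allo-AT9. Ta_6001.1.S1_at read 9.63 and 8.79 (S4) and 9.67 and 8.81 (S5) in Allo-AT9, against 4.61 and 5.52 in TTH01, 3.77 and 3.70 in TQ27 and 3.83 and 5.16 in MPV9. Its Allo-AT5 arrays read 2.80 and 3.56 (S4) and 3.90 and 3.99 (S5), with 3.98 and 3.58 in TTR04 and 3.83 and 3.78 in MPV5. Both probe sets were higher on replicate 1 of Allo-AT9 at both generations. Within the same cluster, Ta_6001.1.S1_a_at was near its parents in Allo-AT9, at 7.13 and 6.89 (S4) and 7.20 and 6.85 (S5), against 6.12 and 6.59 in TTH01, 6.83 and 7.22 in TQ27 and 6.48 and 6.13 in MPV9. Ta_6001.2.S1_at was under the level on the Allo-AT9, TTH01, TQ27 and MPV9 arrays, and read 6.98 and 7.14 (S4) and 6.88 and 6.83 (S5) in Allo-AT5 and 8.17 and 6.62 in TTR04.

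The Ta_15177 cluster held rank 3, Ta_15177.3.S1_x_at, and rank 23, Ta_15177.2.S1_x_at. Ta_15177.3.S1_x_at read 9.70 and 10.34 (S4) and 9.68 and 9.85 (S5) in Allo-AT9, against 5.22 and 5.53 in TTH01, 4.32 and 4.24 in TQ27 and 4.97 and 4.95 in MPV9. Allo-AT5 stood at 4.89 and 4.75 (S4) and 5.27 and 4.62 (S5), with 4.11 and 5.38 in TTR04 and 4.04 and 4.40 in MPV5. Ta_15177.2.S1_x_at read 7.49 and 7.61 (S4) and 7.84 and 6.64 (S5) in Allo-AT9, against 4.95 and 4.79 in TTH01, 5.42 and 5.24 in TQ27 and 4.94 and 4.63 in MPV9, and 5.01 and 4.99 (S4) and 5.05 and 4.98 (S5) in Allo-AT5, with 4.70 and 5.10 in TTR04 and 4.53 and 4.65 in MPV5. The 14 arrays outside Allo-AT9 lay around the level in both, at 4.04 to 5.53 in the first and 4.53 to 5.42 in the second. A probe set of this cluster that the selection left out, Ta_15177.1.S1_x_at, had the highest Allo-AT9 level of the cluster, with 11.49 and 11.90 (S4) and 12.00 and 11.61 (S5), against 6.69 and 6.54 in TTH01, 7.41 and 7.32 in TQ27 and 7.30 and 7.12 in MPV9. It missed the Allo-AT5 condition by a small margin, since its Allo-AT5 mean was 1.06 above MPV5, whose arrays stood apart at 4.66 and 7.12. The fourth of the cluster, Ta_15177.2.S1_at, read 5.18 and 5.25 (S4) and 5.37 and 5.42 (S5) in Allo-AT9, against 5.14 and 5.07 in TTH01, 5.41 and 4.94 in TQ27 and 5.09 and 4.93 in MPV9, and overlapped its parents.

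Ta_11519.1.A1_x_at and Ta_11519.1.A1_at, ranks 9 and 12, had their higher parental signal in TQ27. Ta_11519.1.A1_x_at read 9.35 and 8.81 (S4) and 9.65 and 9.06 (S5) in Allo-AT9, against 4.50 and 4.61 in TTH01, 5.70 and 5.64 in TQ27 and 4.01 and 4.57 in MPV9. In Allo-AT5 it gave 5.01 and 4.94 (S4) and 4.72 and 5.00 (S5), with 4.77 and 4.37 in TTR04 and 4.91 and 4.77 in MPV5. Ta_11519.1.A1_at read 8.69 and 7.98 (S4) and 8.93 and 8.15 (S5) in Allo-AT9, against 3.85 and 3.83 in TTH01, 5.03 and 5.37 in TQ27 and 3.76 and 4.00 in MPV9, and 4.55 and 4.12 (S4) and 4.43 and 4.27 (S5) in Allo-AT5, with 3.72 and 4.14 in TTR04 and 4.26 and 4.03 in MPV5. The Allo-AT9 arrays of both were more than 2 units above the highest array of any other group. The TaAffx_12365 cluster had both of its probe sets among the 50 as well, at ranks 13 and 15. TaAffx_12365.1.A1_at read 6.54 and 6.14 (S4) and 6.40 and 6.15 (S5) in Allo-AT9, against 3.47 and 3.34 in TTH01, 2.91 and 2.61 in TQ27 and 3.68 and 2.90 in MPV9, and 3.18 and 2.63 (S4) and 2.75 and 2.78 (S5) in Allo-AT5, with 3.84 and 3.22 in TTR04 and 3.59 and 2.54 in MPV5. TaAffx_12365.2.S1_at read 5.29 and 4.75 (S4) and 4.98 and 5.03 (S5) in Allo-AT9, against 2.50 and 2.18 in TTH01, 2.45 and 2.20 in TQ27 and 2.27 and 1.97 in MPV9, and 1.83 and 2.13 (S4) and 2.27 and 2.43 (S5) in Allo-AT5, with 2.09 and 2.37 in TTR04 and 2.44 and 2.37 in MPV5. Neither reached the level on any array outside Allo-AT9.

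Ta_10183.1.S1_at, rank 10, reached the level on 13 of the 14 arrays outside Allo-AT9. It read 10.04 and 9.78 (S4) and 9.83 and 10.18 (S5) in Allo-AT9, against 4.37 and 5.57 in TTH01, 6.89 and 6.58 in TQ27 and 6.37 and 6.23 in MPV9. Allo-AT5 gave 6.68 and 7.58 (S4) and 7.85 and 7.93 (S5), with 5.86 and 7.62 in TTR04 and 6.43 and 7.55 in MPV5. The highest array outside Allo-AT9 was one of Allo-AT5 S5, which was still 1.85 below the lowest Allo-AT9 array. Of the parents TTH01 was the lower.

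**Figure D2:**
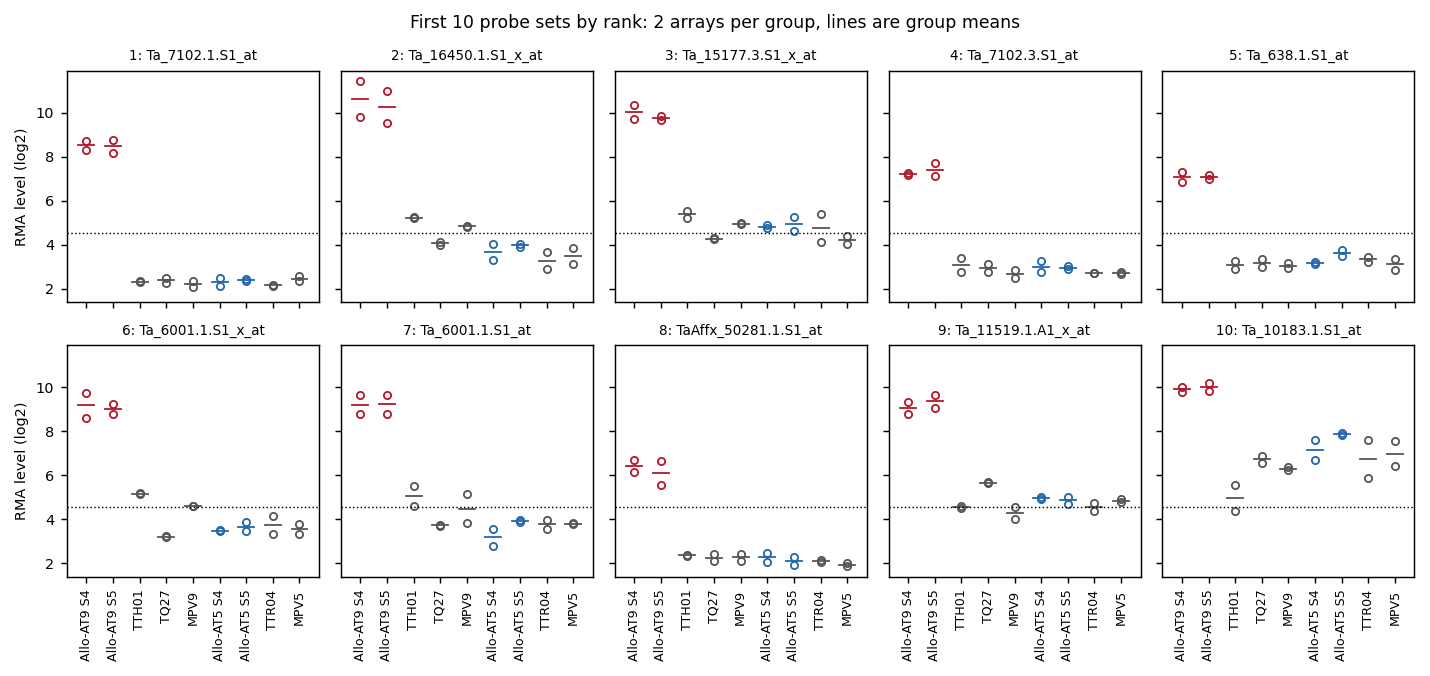
Levels of the first 10 probe sets by rank on the log2 scale, 1 panel each, with the 2 arrays of every group as circles and the group mean as a short line; the dotted line is the level of 4.54. Allo-AT9 (red) stands above all other groups in each panel, and 4 of the panels (ranks 1, 4, 5 and 8) have no other array at the dotted line.

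At the lower end of the ranking the margins were small. The last of the 50, TaAffx_16415.2.S1_at, read 7.86 and 7.82 (S4) and 7.99 and 7.68 (S5) in Allo-AT9, against 6.94 and 7.45 in TTH01, 3.54 and 3.31 in TQ27 and 6.27 and 6.93 in MPV9, a gap of 0.23. Its Allo-AT5 arrays gave 5.82 and 7.34 (S4) and 6.57 and 6.67 (S5), with 7.69 and 6.83 in TTR04 and 6.83 and 6.18 in MPV5, so that 1 TTR04 array reached the lowest Allo-AT9 array. The first probe set outside, Ta_5790.3.S1_a_at, read 5.25 and 4.82 (S4) and 5.78 and 4.80 (S5) in Allo-AT9, against 4.58 and 4.28 in TTH01, 3.81 and 3.75 in TQ27 and 4.46 and 4.19 in MPV9, a gap of 0.22. Ranks 1 to 25 had a median gap of 2.46 and ranks 26 to 50 one of 0.39. The condition on Allo-AT5 alone kept out 3 probe sets whose gap was as large as that of the 50. These were Ta_15177.1.S1_x_at with a gap of 4.07, TaAffx_28462.1.S1_at with 3.41 and TaAffx_28462.1.S1_s_at with 0.61. TaAffx_28462.1.S1_at was high in both lines, with 9.45 and 9.35 (S4) and 8.82 and 8.83 (S5) in Allo-AT9 and 6.77 and 8.57 (S4) and 8.44 and 8.10 (S5) in Allo-AT5, against 4.89 and 4.72 in TTH01, 5.28 and 5.21 in TQ27 and 5.40 and 4.96 in MPV9 and 4.38 and 4.70 in TTR04 and 5.12 and 4.84 in MPV5.

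By parental state the 50 fell into several classes. The ranking used these parental arrays, and low parents gave larger gaps, so that nothing is read from the ranks of a class. The shares of the classes over all probe sets were not computed. In 22 of them all arrays of TTH01 and TQ27 were under the level, 15 of these at ranks 1 to 25, and Allo-AT9 exceeded MPV9, which was under it as well, by a median of at least 1.39 (0.46 to 3.95) with MPV9 set to the level, and of 2.79 (1.01 to 6.26) as measured. In 10 all arrays of both parents reached it, 8 of these at ranks 26 to 50, with a median excess of 1.12 (0.54 to 2.61). TTH01 reached it and TQ27 did not in 9, with a median excess of 1.77 (0.62 to 5.59), or at least 1.58 with MPV9 set to the level in the 1 where both its arrays were under it. The reverse held in 2, which were Ta_11519.1.A1_at and Ta_8663.3.A1_at, with an excess of at least 3.90 and at least 2.35. The remaining 7 had a parent with 1 array on each side of the level. TQ27 was the higher parent in mean level in 26 of the 50 and TTH01 in 24, and the parental means lay within 1 unit of each other in 33. These counts include the 22 with both parents under the level, where the order of weak signals says little. The highest of the 6 arrays was one of TTH01 in 21, of TQ27 in 21 and of MPV9 in 8.

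MPV9 lay near the weighted level of its parents. Weighting the linear parental levels 2 to 1, MPV9 differed from the value computed from TTH01 and TQ27 by a median of -0.08 (-0.74 to 0.48) in the 50 and by less than 1 unit in all 50. Over all probe sets the median was -0.12, and 99.5% lay within 1 unit.

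The other probe sets of the same clusters, 38 in 19 clusters, read related sequences. Since a probe set with both conditions met and a larger gap would have been chosen itself, these are what the selection left in each cluster. In 29 of the 38 the Allo-AT9 mean was above the MPV9 mean, and the median difference was 0.26 (-0.46 to 4.54). Over all probe sets 53.1% were above it, and 0.435% were above it by at least 1. An excess of at least 1 was found in 5 of the 38, which were Ta_15177.1.S1_x_at with 4.54, Ta_9960.1.S1_x_at with 1.94, Ta_9960.1.S1_at with 1.79, Ta_2884.2.S1_a_at with 1.19 and Ta_6138.1.S1_at with 1.15. All 4 Allo-AT9 arrays were above the 6 arrays of the parents and MPV9 in 4 of the 38, where 0.267% of all probe sets had this order. Nothing is read from this count, since the clusters were found through members chosen on the same arrays. Of the 38, 7 were under the level on all 18 arrays. These counts are a description, and probe sets of a cluster can share transcripts. By name ending, 34 of the 50 were plain _at probe sets (68.0%), 8 were _x_at (16.0%), 4 were _s_at, which match several transcripts, and 4 were _a_at. Among the 22677 that met both conditions 65.2% were _at and 16.5% were _x_at.

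**Figure D3:**
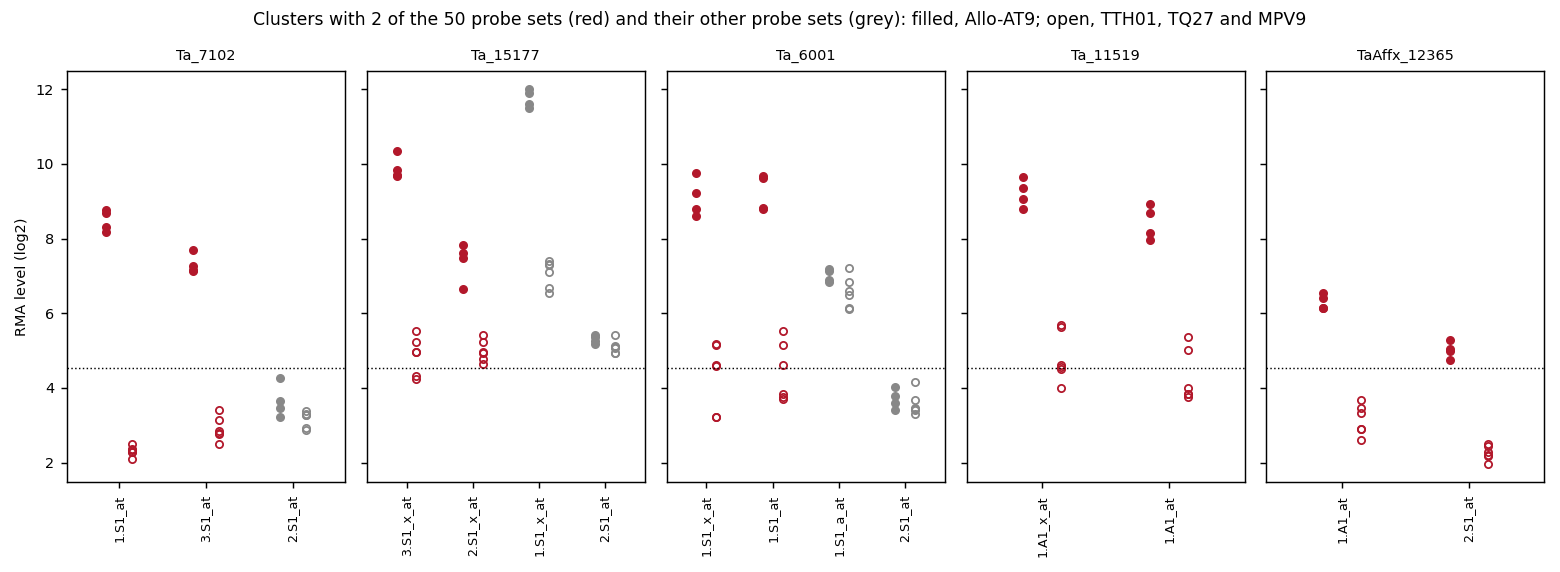
Levels on the log2 scale for the 5 clusters with 2 of the 50 probe sets each, with Allo-AT9 arrays as filled circles on the left of each probe set and the TTH01, TQ27 and MPV9 arrays as open circles on the right. Red marks the probe sets among the 50 and grey the others of the cluster, of which Ta_15177.1.S1_x_at alone is separated, with Allo-AT9 arrays at 11.49 to 12.00.

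The durum parent TTR04 took no direct part in the selection, although its RNA is in MPV5, and its arrays give the level of the 50 in the other tetraploid wheat. Both TTR04 arrays were under the level in 26 of the 50, both reached it in 16, and 1 of 2 did in 8. Over all probe sets both reached it in 38.1%. The 16 comprised 3 at ranks 1 to 25 and 13 at ranks 26 to 50. In 22 probe sets all arrays of TTH01, TQ27 and MPV9 were under the level. Of these, 19 were under it on both TTR04 arrays and 21 on all 4 Allo-AT5 arrays. Of the 50, 19 were under it on all 14 arrays outside Allo-AT9. These counts are a description only, since the ranking favoured low TTH01, TQ27 and MPV9 arrays and Allo-AT5 was held near MPV5. The matching shares of probe sets as low in these groups were not computed. The TTR04 mean was above the means of both TTH01 and TQ27 in 21 of the 50, where 28.0% of all probe sets had this order. Nothing is read from this count, since the ranking favoured low TTH01 and TQ27 arrays and did not use those of TTR04.

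The 3 with the highest TTR04 levels follow by array. Ta_25381.1.S1_s_at read 9.96 and 9.55 (S4) and 9.64 and 9.60 (S5) in Allo-AT9, against 8.96 and 9.20 in TTH01, 8.37 and 8.49 in TQ27 and 9.20 and 9.11 in MPV9, and 9.36 and 9.44 (S4) and 9.31 and 9.27 (S5) in Allo-AT5, with 9.30 and 9.52 in TTR04 and 9.21 and 9.35 in MPV5. All groups were high, and the lowest Allo-AT9 array was 0.03 above the highest other array. Ta_2884.3.S1_x_at read 10.56 and 9.96 (S4) and 9.77 and 10.81 (S5) in Allo-AT9, against 9.37 and 9.36 in TTH01, 6.86 and 8.24 in TQ27 and 9.001 and 9.38 in MPV9, and 8.86 and 9.15 (S4) and 9.98 and 9.57 (S5) in Allo-AT5, with 8.45 and 9.91 in TTR04 and 8.02 and 9.35 in MPV5. Its lowest Allo-AT9 array was below 1 TTR04 array and 1 Allo-AT5 S5 array. TaAffx_111480.1.S1_at read 7.79 and 7.79 (S4) and 7.57 and 7.68 (S5) in Allo-AT9, against 6.02 and 7.18 in TTH01, 3.32 and 3.44 in TQ27 and 5.25 and 7.01 in MPV9, and 7.70 and 7.39 (S4) and 7.29 and 7.12 (S5) in Allo-AT5, with 7.26 and 8.05 in TTR04 and 6.80 and 7.53 in MPV5. In the last of these TTR04 and 1 Allo-AT5 array overlapped with Allo-AT9, the TTH01 arrays were apart and TQ27 was under the level, so that its excess held against the parents of Allo-AT9 and not against the durum wheat. The 3 with the lowest TTR04 levels, TaAffx_50281.1.S1_at, Ta_7102.1.S1_at and TaAffx_12365.2.S1_at, are described above.

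Across the 50, Allo-AT9 exceeded TTR04 by a median of 2.09 (-0.18 to 7.17), or at least 1.39 with TTR04 set to the level in the 26 where both its arrays were under it. Where both TTR04 arrays reached the level the median was 0.99 (-0.18 to 3.22), and where both were under it 3.20, or 1.77 with TTR04 set to the level. The mean of TTR04 was at or above that of Allo-AT9 in 1 probe set, TaAffx_109151.1.S1_at, with 5.49 and 5.32 (S4) and 5.78 and 5.31 (S5) in Allo-AT9 and 6.16 and 5.15 in TTR04. All 4 Allo-AT9 arrays were above both TTR04 arrays in 41 of the 50, where 9.79% of all probe sets had this order. They were above all 14 other arrays in 39, including every one at ranks 1 to 25, where the share over all probe sets was 0.141%. Since the Allo-AT9 arrays were chosen as high, and all of the 14 other arrays but the 2 of TTR04 bore on the selection, nothing is read from either count. In the 11 that overlapped, the array that reached Allo-AT9 was one of TTR04 in 9, of Allo-AT5 S5 in 5, of MPV5 in 4 and of Allo-AT5 S4 in 3, with several at once in some. The TTR04 arrays were over 1 unit apart in 9 of the 50, as in Ta_6873.1.S1_at with 5.28 and 2.92, and over all probe sets in 16.9%.

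**Figure D4:**
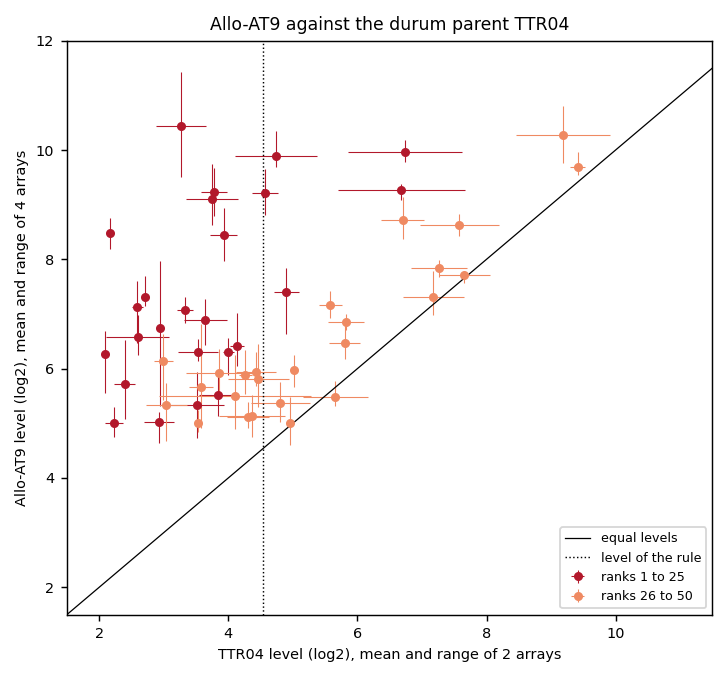
Mean Allo-AT9 level (vertical, 4 arrays) against mean TTR04 level (horizontal, 2 arrays) for the 50 probe sets on the log2 scale, with bars for the range over arrays, the diagonal for equal levels and a dotted line at 4.54. Ranks 1 to 25 (dark red) lie mostly left of the dotted line and far above the diagonal, and 13 of ranks 26 to 50 (orange) have both TTR04 arrays to its right.

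Whether Allo-AT5 also stood apart from its durum parent could be asked only within the condition that its mean stayed less than 1 unit from MPV5. All 4 Allo-AT5 arrays were above the 6 arrays of TTR04, TQ27 and MPV5 in 0 of the 50, where 0.265% of all probe sets had this order. All 4 Allo-AT5 arrays reached the level in 17 of the 50 and none did in 27. Against TTR04, which entered the condition only through MPV5, 0 of the 50 passed the test (limma, adjusted p under 0.05 over 61115 probe sets), where 2.74% of all probe sets did. At an unadjusted p under 0.05 there were 4 of the 50, and 11.8% of all probe sets. The median difference of Allo-AT5 from TTR04 in the 50 was -0.01 (-0.70 to 0.84), with a median SE of 0.28, and over all probe sets it was -0.07. The widest differences were those of TaAffx_53723.2.S1_x_at and TaAffx_12365.1.A1_at. TaAffx_53723.2.S1_x_at read 8.44 and 7.95 (S4) and 8.48 and 8.79 (S5) in Allo-AT5, against 6.97 and 8.19 in TTR04, a difference of 0.84 ± 0.38 (SE; limma adjusted p = 0.417). In Allo-AT9 this probe set read 8.43 and 8.84 (S4) and 8.66 and 8.55 (S5), so that the 2 lines overlapped. TaAffx_12365.1.A1_at, with the values above, differed by -0.70 ± 0.31 (SE; limma adjusted p = 0.408). A p above the threshold with 2 TTR04 arrays does not show that the levels were equal. The condition on MPV5, which holds 2 parts of TTR04 RNA, limited this difference beforehand. Nothing is therefore read from either count of 0 of the 50.

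The 2 generations of Allo-AT9 were compared by the size of their difference. The selection ranked by the lowest of the 4 Allo-AT9 arrays, so that an excess over the parents at both S4 and S5 was required and large differences between generations were held back. The S5 minus S4 difference in Allo-AT9 had a median of -0.06 (-0.80 to 0.86) over the 50. Of the 50, 20 were higher at S5, against 51.4% of all probe sets. The median size was 0.15, against 0.16 over all probe sets, many of which were under the level. Nothing is read from these similar sizes, since the selection held back those of the 50. None of the 50 (0 of 50) passed the test with limma, as 0% of all probe sets did, and 2 of the 50 had an unadjusted p under 0.05, against 1.36% of all probe sets. No difference exceeded 1 unit in size. The median SE of 0.33 gives an unadjusted 95% interval of ± 0.71 for a typical member with 2 arrays per generation. Changes within it were not detectable. The test adjusts for all probe sets, so that changes beyond this interval could be missed as well. Ta_8434.1.A1_at, for example, did not pass with a difference of -0.80 ± 0.28 (SE).

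The 2 largest decreases at S5 were in Ta_8434.1.A1_at and Ta_896.2.S1_s_at. Ta_8434.1.A1_at read 6.52 and 5.71 (S4) and 5.08 and 5.54 (S5) in Allo-AT9, and the 14 other arrays 2.20 to 2.97. Its S5 minus S4 difference was -0.80 ± 0.28 (SE; limma adjusted p = 1), and its generations did not overlap. Ta_896.2.S1_s_at read 6.37 and 6.63 (S4) and 6.14 and 5.43 (S5) in Allo-AT9, and the 14 other arrays 2.85 to 4.47. Its difference was -0.71 ± 0.29, again with no overlap between generations and an adjusted p of 1 in limma. The 2 largest increases were in Ta_6873.1.S1_at and Ta_11739.1.A1_at. Ta_6873.1.S1_at read 4.89 and 5.25 (S4) and 6.25 and 5.61 (S5) in Allo-AT9, a difference of 0.86 ± 0.59, against 3.04 and 3.03 in TTH01, 3.82 and 3.98 in TQ27 and 2.83 and 3.02 in MPV9. One TTR04 array of this probe set was higher than both Allo-AT9 S4 arrays. Ta_11739.1.A1_at read 6.05 and 6.34 (S4) and 7.02 and 6.25 (S5) in Allo-AT9, a difference of 0.44 ± 0.27, and its increase rested on replicate 1 of S5, since the other array lay within the S4 values. The 14 other arrays gave 3.27 to 4.24.

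In Allo-AT5 the S5 minus S4 difference of the 50 had a median of 0.04 (-0.54 to 1.42) and none passed the test in limma (0 of 50, where 0.00164% of all probe sets did), with 1 of the 50 at an unadjusted p under 0.05 against 1.47% of all probe sets. The widest was Ta_6608.2.S1_a_at, which read 9.38 and 9.09 (S4) and 9.37 and 9.22 (S5) in Allo-AT9 and 4.98 and 6.80 (S4) and 7.40 and 7.23 (S5) in Allo-AT5. Its difference of 1.42 ± 0.67 (SE) in Allo-AT5 rested on the low replicate 1 of S4. The difference of the generation effect between the lines, Allo-AT9 minus Allo-AT5, had a median of -0.14 (-1.37 to 1.01) and again passed in 0 of the 50 and in 0% of all probe sets (limma), with 2 of the 50 at an unadjusted p under 0.05 against 1.70% of all probe sets. The median SE was 0.46. Nothing is read from this 0 of the 50, since the selection held back the Allo-AT9 part of the difference.

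**Figure D5:**
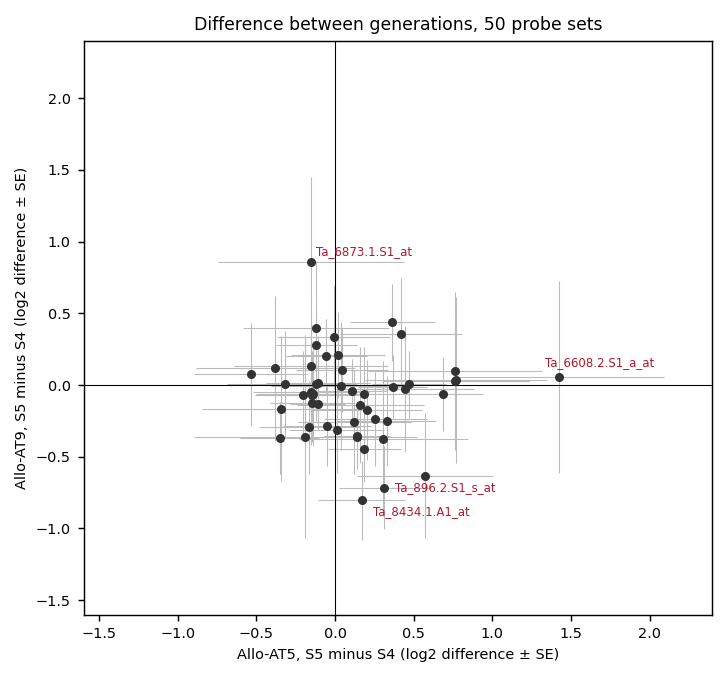
Difference S5 minus S4 in Allo-AT9 (vertical) against that in Allo-AT5 (horizontal) for the 50 probe sets, in log2 units, with bars for 1 SE of the fit. The points lie around 0 on both axes, from -0.80 to 0.86 in Allo-AT9 and from -0.54 to 1.42 in Allo-AT5, and the 4 named are those described with their array values.

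The spread within Allo-AT9 varied among the 50. The range over its 4 arrays had a median of 0.75 (0.22 to 2.67), and it was over 1 in 14. The median was 0.64 over all probe sets that reached the level on these arrays. The smallest range was that of TaAffx_111480.1.S1_at, given above. The widest was that of Ta_25832.1.A1_at, with 5.85 and 7.98 (S4) and 7.80 and 5.31 (S5) in Allo-AT9, against 2.68 and 2.79 in TTH01, 2.97 and 3.28 in TQ27 and 3.19 and 2.95 in MPV9. Its Allo-AT5 arrays gave 3.45 and 2.71 (S4) and 2.68 and 3.11 (S5), with 2.88 and 2.99 in TTR04 and 3.03 and 2.91 in MPV5. One array of each generation was thus high and the other lower, in opposite order of replicate, and all 4 were above every other array. The array that set the gap was S4 replicate 1 in 7 of the 50, S4 replicate 2 in 16, S5 replicate 1 in 14 and S5 replicate 2 in 13. The same replicate was the higher one at both generations in 27 of the 50 (54.0%) and in 60.3% of all probe sets, and its link to the spike-in bands was not tested.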

How the data were processed

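Transcript levels were measured on 18 Affymetrix wheat arrays. The authors normalised the raw arrays with the Robust Multichip Average (RMA) in R, and the deposited values are its log2 levels, which were used as they are; RMA sets all arrays to 1 distribution, so that levels are relative. Array medians were 4.00 to 4.11. The authors' detection flags were not used here. Of 61290 probe sets, 175 controls were set aside. Members and lists were chosen with earlier results of these data known.

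Probe sets were chosen by the stated conditions. Groups were compared with limma 3.58.1 in R 4.3.3, in 1 linear model of 9 group means with empirical Bayes moderation (9 residual and 2.99 prior degrees of freedom) and two-sided p-values adjusted by Benjamini-Hochberg over 61115 probe sets, called at an adjusted p under 0.05. Tests were made of S5 minus S4 within each line, of its difference between lines and of Allo-AT5 minus TTR04, which the selection did not rank by but limited in part. The model was tested on simulated data. The labels call the 2 arrays of a group biological replicates, and their number limits the precision. Where both arrays of a group were under 4.54, the distance from that level is given as the least difference. Per-array values are given for ranks 1 to 10, the members and probe sets beside the end of the list, the 3 with the highest and the 3 with the lowest TTR04 level, the 2 with the largest S5 minus S4 differences each way in Allo-AT9, the smallest and widest Allo-AT9 ranges and clusters with 2 members; other probe sets named were chosen after their values were seen. Alternatives were cyclic loess, blocks, other filters and levels, a separate fit, an intensity trend and arrays left out.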

Additional observations from a re-analysis of the deposited data

How the results depend on the processing

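None of the 4 tests called any of the 50 under cyclic loess, the replicate block (0 calls), a block for the spike-in bands, a fit of the compared groups alone, a test of expressed probe sets alone (29667), an intensity trend or without any 1 array of the compared groups (0 to 0 calls each). Averaging the Allo-AT5 S5 arrays into 1, an alternative chosen after seeing the data, also gave 0. Except for S5 minus S4 in Allo-AT5, the selection limited these differences in part, so that nothing is read from their counts of 0. At an unadjusted p under 0.05 there were 2 calls for S5 minus S4 in Allo-AT9, 1 in Allo-AT5, 2 for the difference between lines and 4 for Allo-AT5 minus TTR04. The replicate numbers were not taken to pair arrays. Same-numbered arrays deviated together in Allo-AT9 (r = 0.46 across probe sets between S5 and S4) and less in Allo-AT5 (0.07). The model also took the mixture arrays as independent of the parental arrays, although each mixture was made from parental RNA. Whether these deviated together was not tested.

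The list itself depends on its conditions. With a level of 6, 27 of the 50 were chosen again. The number was 37 when ranking by group means, 47 without the Allo-AT5 condition, 44 with a limit of 0.5, 48 after cyclic loess and 42 to 50 without 1 array. The median gap of the same 50 was 1.88 between group means in place of lowest and highest arrays, against 1.03, and 1.15 after cyclic loess. Both TTR04 arrays reached the level in 16 of the 50 after cyclic loess as well, and the TTR04 mean did in 19. With 2 arrays a group, small margins at the end of the ranking are within the spread between arrays.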
